A study of Mus musculus with 18 samples.

Results

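The 10 genes described here carry or read the Hedgehog signal of the embryonic midline: Shh, Foxa2, Noto, Ptch1, Smo, Hhip, Gas1, Gli1, Gli2 and Gli3. They were chosen by symbol, and their Ensembl identifiers were 10 of the 53465 rows of the deposited mouse table. Sonic hedgehog (Shh) is a secreted protein made by the notochord, the rod of mesoderm under the neural tube, and by the floor plate, the ventral midline of the neural tube. It binds the receptor Patched (Ptch1), which otherwise holds the membrane protein Smoothened (Smo) inactive, and released Smoothened acts at the primary cilium to set whether Gli transcription factors activate or repress their targets. In the embryonic axis this signal patterns the ventral neural tube and directs the ventral somite towards sclerotome, the precursor of the vertebrae, and Ptch1, Gli1 and Hhip are themselves among its usual targets.

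Poly(A) RNA was sequenced from 9 mouse embryos at embryonic day 9 with 20 to 24 somites, 5 controls and 4 labelled double knockouts (DKO) of the homeobox genes Meis1 and Meis2, made with Delta1Cre. The study asked which genes depend on Meis during early axial patterning and which during later somite differentiation, so each embryo was cut into a posterior piece, the axial bud plus its 10-12 newest somites, and an anterior piece, the remaining axis with somites but without the head. This gave 4 groups, with 5 control and 4 DKO libraries from each piece. Delta1Cre is driven by Delta1 (Dll1), a gene of the presomitic mesoderm, so recombination is limited to cells with a history of that driver. The labels give neither the alleles of the control embryos nor whether these carried Cre, and do not say which cells of the pieces recombined.

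Libraries held 12.7 to 38.2 M expected counts, in which 3 counts correspond to 0.0786 to 0.237 CPM (counts per M counts of the library). Meis1 ranged from 113 to 135 CPM in anterior controls and from 89.7 to 111 CPM in anterior DKO libraries, and Meis2 from 177 to 203 CPM and from 130.4 to 157 CPM. Posterior Meis1 was at 59.6 to 99.8 CPM in controls and 46.7 to 71.9 CPM in DKO, and Meis2 at 117 to 162 CPM and 91.1 to 116 CPM. Most RNA of both genes thus remained in DKO: Meis1 was 1.23 and Meis2 1.33 times lower in the anterior piece (edgeR adjusted p = 0.123 and 0.0522), and 1.47 and 1.44 times lower in the posterior piece (0.336 and 0.196), where the Meis1 ranges overlapped. Counts per gene do not separate the deleted part of a gene from the rest, so they check the labels only in part. All 7 fixed markers of the axial bud and presomitic mesoderm were higher in the posterior piece of both genotypes, and Msgn1 had at most 3 counts in every anterior library. For 1 embryo, control 1, sex-linked genes went against the label in both libraries: it is labelled female, Xist was at most 0.340 CPM and the summed Y-linked genes reached 161 CPM. Calls on the genes named below that end without that embryo are given with and without it.

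**Figure D1:**
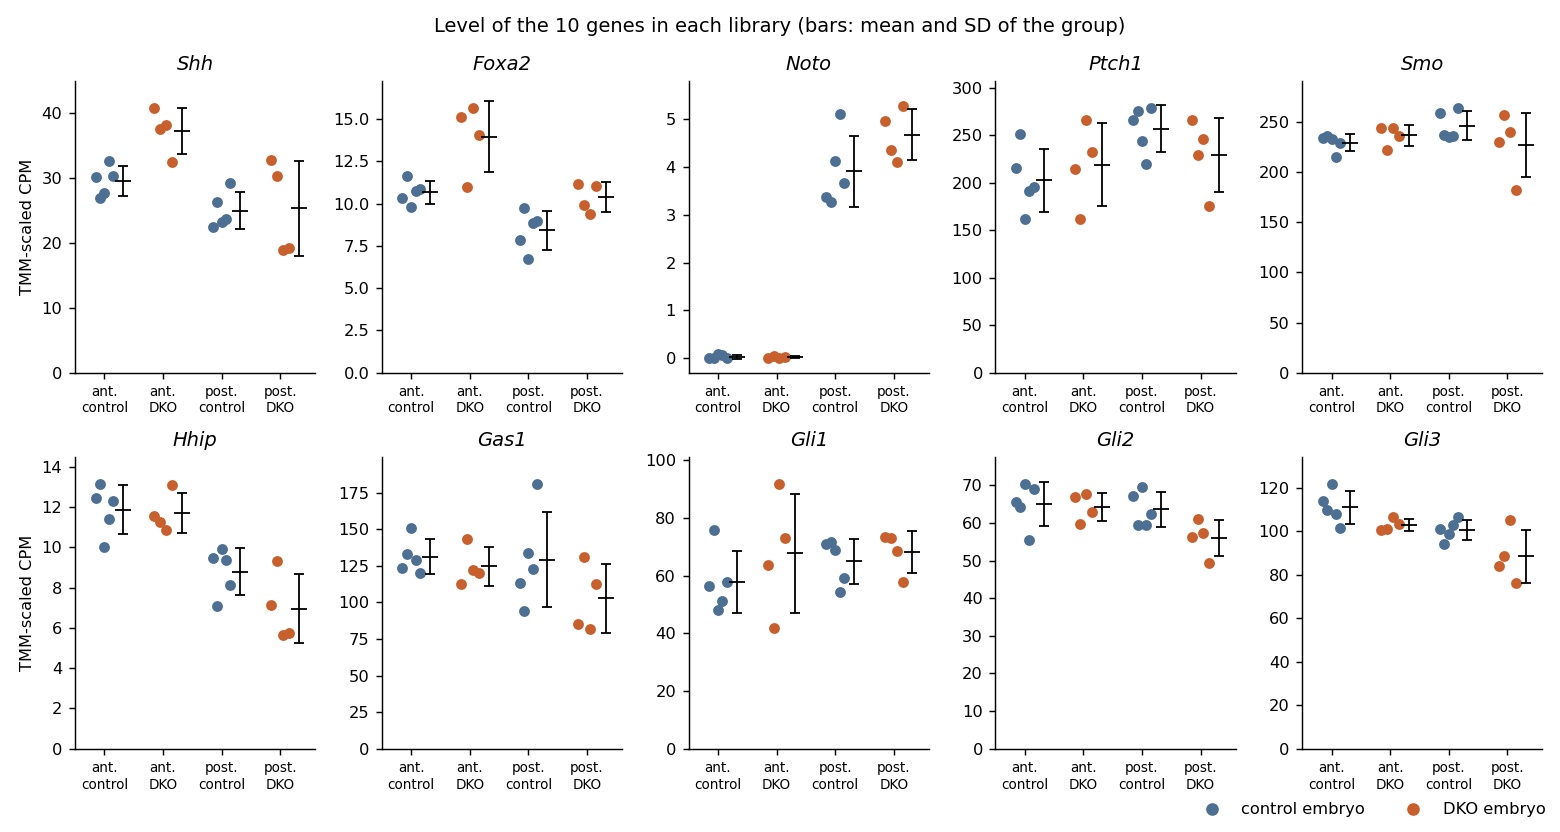
Each panel shows 1 gene as TMM-scaled CPM (vertical axis, from 0) in every library of the 4 groups (horizontal axis), with control embryos in blue, DKO embryos in orange, and the mean and SD of the group beside the points. Noto lies near 0 in all 9 anterior libraries and between 3.26 and 5.27 CPM in the 9 posterior ones, and Hhip lies lower in the posterior than in the anterior libraries of each genotype.

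Per length of their exons, the levels of the 10 genes could be put in order. CPM per kb of exon was highest for the signal-transducing Smo and the coreceptor Gas1: in anterior controls Gas1 averaged 44.4 ± 4.01 CPM per kb (SD, n = 5) and Smo 40.9 ± 1.53 CPM per kb, and these neighbours overlapped in all 4 groups. Ptch1 came next at 14.3 ± 2.34 CPM per kb, apart from both and overlapping Gli1. Gli1 (11.6 ± 2.16 CPM per kb), Gli3 (11.6 ± 0.787), Shh (10.4 ± 0.799) and Gli2 (9.46 ± 0.856) followed, each overlapping the next in that group. Foxa2 lay apart below them at 4.51 ± 0.289 CPM per kb and Hhip at 1.31 ± 0.133 CPM per kb. Noto was lowest in the anterior piece at 0.0169 ± 0.0235 CPM per kb, but in posterior controls it averaged 2.44 ± 0.467 CPM per kb, overlapped Foxa2 (3.55 ± 0.488) and was apart from Hhip (0.969 ± 0.129).

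Regional differences are given first. In controls 4 of the 10 genes differed between the pieces at an adjusted p under 0.05 (edgeR's quasi-likelihood test, Benjamini-Hochberg adjustment over all genes tested): Noto and Ptch1 were higher in the posterior piece, Foxa2 and Hhip lower. For comparison, 25.4% of 15294 genes tested passed in that comparison, 12.1% higher and 13.3% lower, so 4 of 10 with 2 in each direction is not set apart from this background by a test. Noto entered that test only through its posterior counts, and of the other 9 genes 3 passed. In DKO embryos 3 of the 10 passed (2 of the 9 without Noto), Noto higher and Foxa2 and Hhip lower, beside 18.5% of 15777 genes (8.76% higher and 9.7% lower). The median log2 fold change of the 10 genes was −0.03 in controls and −0.20 in DKO, and that of all genes −0.01 and 0.01.

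Noto (chromosome 6, 85423886 to 85428877, plus strand, build GRCm38), a homeobox gene of the node and notochord, was the most regional of the 10. Anterior libraries held 0 or 1 count each, 2 in all 5 controls together and 2 in all 4 DKO libraries. Posterior controls 1 to 5 were at 3.37, 3.26, 4.13, 5.10 and 3.66 CPM, and posterior DKO libraries 1 to 4 at 4.95, 4.36, 4.11 and 5.27 CPM. Every posterior library was above every anterior one, and the posterior groups of the 2 genotypes overlapped. From summed counts (492 posterior against 2 anterior), the posterior level in controls was 174 times the anterior one, with an exact 95% interval of 48.0 to 1445 that covers counting error only; in DKO (436 against 2) it was 235 times, 64.7 to 1947. Noto passed the filter on low counts only through the posterior libraries, where it is high, so its edgeR call between regions had to follow and is given no p-value here. At so few counts the anterior level itself is at or under the floor of 3 counts per library. The summed level of 4 notochord and node markers (T, Chrd, Nog, Foxj1) was 12.0 to 17.1 CPM in anterior and 95.7 to 148 CPM in posterior controls, with T, which also marks the axial bud, the 1 marker past the threshold in either genotype.

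Foxa2 (chromosome 2, 148042877 to 148046969, minus strand), a forkhead factor of the notochord, floor plate and gut endoderm, went the other way. Anterior controls 1 to 5 were at 10.4, 11.7, 9.79, 10.7 and 10.9 CPM, and the posterior pieces of the same embryos at 7.82, 9.74, 6.75, 8.84 and 8.96 CPM. The lowest anterior control lay just above the highest posterior one, so the groups did not overlap, which was so for 20.1% of all genes in this comparison. The log2 fold change was −0.34 (SE 0.109, edgeR adjusted p = 0.0346), a level 1.27 times lower. In DKO the anterior pieces were at 15.1, 11.006, 15.7 and 14.1 CPM and the posterior ones at 11.2, 9.90, 9.39 and 11.1 CPM. Here anterior DKO 2 lay among the posterior libraries, and the log2 fold change was −0.42 (SE 0.129, edgeR adjusted p = 0.0446). Both calls are marginal: in controls the edgeR adjusted p was 0.118, 0.0676, 0.0916 and 0.0806 without embryos 1, 3, 4 and 5, and in DKO 0.161, 0.219 and 0.0857 without embryos 1, 3 and 4. Without a filter on low counts they were 0.0886 and 0.0624.

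Shh (chromosome 5, 28456815 to 28467256, minus strand), the ligand, had lower posterior than anterior values in 5 of 5 control and 4 of 4 DKO embryos. It did not pass the threshold in the main fit, which does not pair the pieces of an embryo. Anterior controls 1 to 5 were at 30.1, 26.9, 27.7, 32.6 and 30.3 CPM and posterior ones at 22.4, 26.4, 23.1, 23.7 and 29.2 CPM. Anterior DKO libraries 1 to 4 were at 40.9, 37.6, 38.2 and 32.4 CPM and posterior ones at 32.7, 30.4, 18.9 and 19.2 CPM. The posterior DKO libraries split widely, with embryos 1 and 2 above all posterior controls and embryos 3 and 4 below them. The log2 fold change was −0.24 in controls (SE 0.0843, edgeR adjusted p = 0.0525) and −0.55 in DKO (SE 0.179, edgeR adjusted p = 0.0598). With the embryo as a block, which compares the pieces within each embryo, edgeR adjusted p-values were 0.0262 and 0.0116, so Shh is then past the threshold in both genotypes. Over all genes, that block took the calls from 3884 to 5136 in controls and from 2913 to 3004 in DKO. DESeq2 also called it in both (adjusted p = 0.0396 and 0.0144), and edgeR called it in DKO without a filter on low counts (0.0289) and in controls without embryo 2 (0.0432) or embryo 5 (0.0322).

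Hhip (chromosome 8, 79965851 to 80058006, minus strand) encodes a membrane protein that binds Hedgehog ligands and limits the signal. Anterior controls were at 12.5, 13.2, 10.0, 11.4 and 12.3 CPM and posterior controls at 9.48, 7.08, 9.93, 9.38 and 8.11 CPM. In DKO the anterior values were 11.6, 11.3, 10.8 and 13.1 CPM and the posterior ones 7.15, 9.31, 5.65 and 5.73 CPM. The regions did not overlap in either genotype. Hhip was 1.35 times lower posteriorly in controls (log2 fold change −0.43, SE 0.114, edgeR adjusted p = 0.0139) and 1.67 times lower in DKO (−0.74, SE 0.164, edgeR adjusted p = 0.00997). The control call was lost without embryo 2 (edgeR adjusted p = 0.0586) or embryo 5 (0.0647), and the DKO call without embryo 1 (0.0656) or embryo 4 (0.0549). In total 3 of the 10 genes had regions that did not overlap in controls (Noto, Foxa2 and Hhip) and 2 in DKO (Noto and Hhip), beside 20.1% and 23.5% of all genes tested.

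Ptch1 (chromosome 13, 63508328 to 63573598, minus strand), the ligand's receptor and a standard readout of pathway activity, was higher in the posterior piece of controls. Anterior controls were at 215, 252, 162, 191 and 195 CPM, and their posterior partners at 266, 276, 244, 220.2 and 279 CPM. The posterior value was the higher one in 5 of 5 embryos, although the groups overlapped through anterior control 2. The log2 fold change was 0.34 (SE 0.105, edgeR adjusted p = 0.0310). In DKO the anterior libraries were at 214, 162, 266 and 233 CPM and the posterior ones at 267, 229.8, 247 and 176 CPM, with the posterior value higher in 2 of 4 embryos and a log2 fold change of 0.07 (SE 0.159, edgeR adjusted p = 0.821). Passing in 1 genotype and not in the other is no test of the difference, which is the interaction given below and did not pass. The control call was lost without embryo 1 (edgeR adjusted p = 0.0857), 3 (0.0803), 4 (0.0506) or 5 (0.124).

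**Figure D2:**
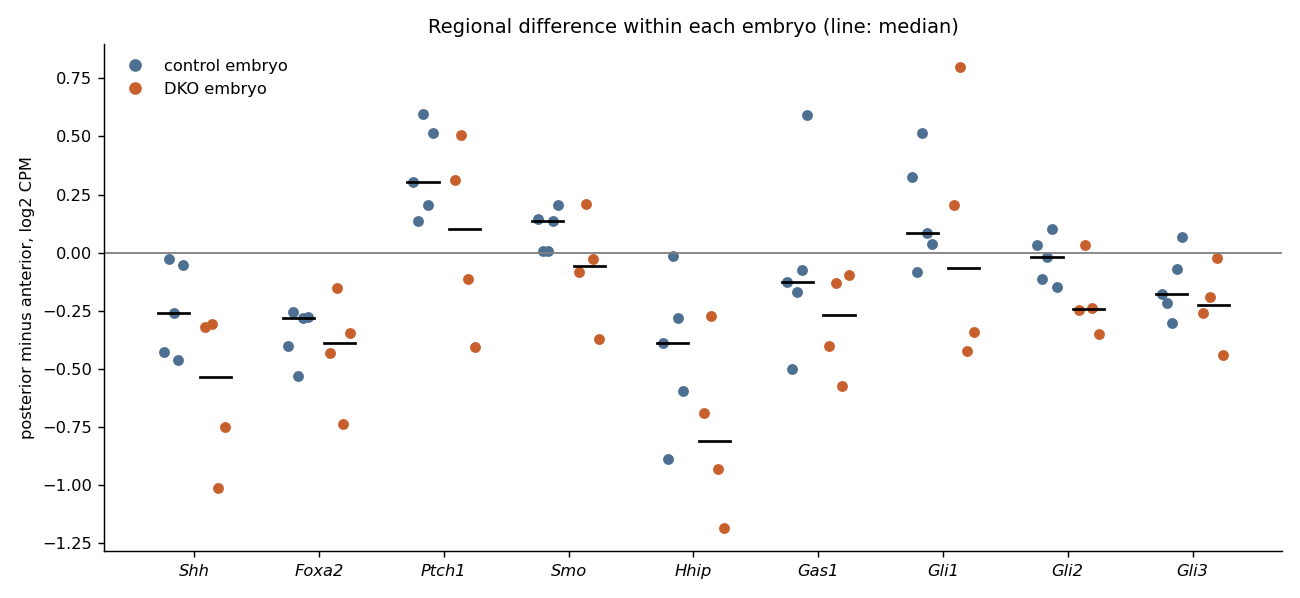
The vertical axis is the posterior minus the anterior log2 CPM of the same embryo, 1 point per embryo and gene, with controls in blue, DKO in orange and the median as a line; Noto, far above the axis, is left out. Shh, Foxa2 and Hhip lie below 0 in all 9 embryos, and Ptch1 and Smo lie above 0 in all 5 controls but on both sides of 0 in the DKO embryos.

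The remaining 5 genes did not pass the threshold between regions in either genotype. Smo (chromosome 6, 29735503 to 29761365, plus strand) was at 215 to 236 CPM in anterior and 235 to 265 CPM in posterior controls (log2 fold change 0.10, SE 0.050, edgeR adjusted p = 0.166), higher posteriorly in 5 of 5 controls and in 1 of 4 DKO embryos. Gas1 (chromosome 13, 60174405 to 60177365, minus strand), a membrane-anchored coreceptor that helps Ptch1 bind the ligand, ranged from 120.3 to 151 CPM in anterior and from 94.3 to 181 CPM in posterior controls. Gli1 (chromosome 10, 127329882 to 127341974, minus strand), an activator whose own transcription follows the signal, was at 48.1 to 75.9 CPM in anterior and 54.3 to 71.7 CPM in posterior controls. These 3 genes overlapped between regions in both genotypes. In DKO Gas1 was at 113 to 143 CPM and 82.1 to 131 CPM (log2 fold change −0.28, SE 0.145, edgeR adjusted p = 0.247), lower posteriorly in 4 of 4 embryos and in 4 of 5 controls. Gli1 in DKO was at 42.0 to 91.8 CPM and 57.8 to 73.5 CPM (0.02, SE 0.192, edgeR adjusted p = 0.968), higher posteriorly in 2 of 4 embryos and in 4 of 5 controls. Gli2 (chromosome 1, 118834132 to 119053619, minus strand), the main activator in the first response to the signal, was at 55.5 to 70.4 CPM and 59.4 to 69.6 CPM in controls, and at 59.7 to 67.6 CPM and 49.3 to 61.0 CPM in DKO (−0.19, SE 0.0735, edgeR adjusted p = 0.103), lower posteriorly in 3 of 4 DKO embryos and 3 of 5 controls. Gli3 (chromosome 13, 15463235 to 15730026, plus strand), mainly a repressor where the signal is absent, was at 101 to 122 CPM in anterior and 94.3 to 106 CPM in posterior controls (log2 fold change −0.14, SE 0.0525, edgeR adjusted p = 0.0717). Its DKO values were 101 to 107 CPM and 76.3 to 105 CPM (−0.22, SE 0.0887, edgeR adjusted p = 0.133), and it was lower posteriorly in 4 of 4 DKO embryos and 4 of 5 controls. Gli3 passed without control embryo 5 (edgeR adjusted p = 0.0272) and, in DKO, without embryo 3 (0.0330).

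These are whole pieces of the axis, so fewer cells of a type and less RNA per cell cannot be told apart, and several cell type markers moved with the regional values. All 10 neural tube markers were lower in the posterior piece in both genotypes at an adjusted p under 0.05 (edgeR), beside 13.3% of all genes in controls and 9.7% in DKO, with summed levels of 512 to 655 CPM in anterior and 268 to 374 CPM in posterior controls. Of 6 floor plate markers, 5 had lower posterior values in each genotype, 3 of them past the threshold (Spon1 and Slit2 among these), and 1 was higher and past it (Foxa1, also a gut endoderm gene), with sums of 327 to 364 CPM and 253 to 293 CPM. Of 8 gut endoderm markers, 5 of the 6 tested in controls were higher posteriorly and past the threshold, beside 12.1% of all genes, with sums of 46.9 to 80.0 CPM and 117 to 177 CPM. None of the markers of these lists was at 0 in all libraries of a group. Their part in the levels of Shh, Foxa2 and Hhip was not tested.

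The sequences just upstream of the genes with a called regional difference are shown so that a reader can see what lies at each start site; they are RefSeq promoters of the build GRCm38.p6, 250 bases each, 5′ to 3′ on the strand of the gene and all in lower case. The windows are chr6:85423636-85423885 (Noto, plus strand), chr2:148046970-148047219 (Foxa2, minus), chr8:80058009-80058258 (Hhip, minus) and chr13:63565736-63565985 (Ptch1, minus, inside the annotated span of the gene at an internal start site). None of them overlaps an annotated exon.
Noto: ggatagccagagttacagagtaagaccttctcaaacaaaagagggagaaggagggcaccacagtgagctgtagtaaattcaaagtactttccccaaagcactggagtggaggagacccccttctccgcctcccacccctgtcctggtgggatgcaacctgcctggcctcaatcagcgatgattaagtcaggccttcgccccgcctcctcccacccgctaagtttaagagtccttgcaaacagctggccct
Foxa2: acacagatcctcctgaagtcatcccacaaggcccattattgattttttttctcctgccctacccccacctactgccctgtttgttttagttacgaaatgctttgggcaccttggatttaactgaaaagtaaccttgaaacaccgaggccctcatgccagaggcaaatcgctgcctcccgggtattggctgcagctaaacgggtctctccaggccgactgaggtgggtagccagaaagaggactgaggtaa
Hhip: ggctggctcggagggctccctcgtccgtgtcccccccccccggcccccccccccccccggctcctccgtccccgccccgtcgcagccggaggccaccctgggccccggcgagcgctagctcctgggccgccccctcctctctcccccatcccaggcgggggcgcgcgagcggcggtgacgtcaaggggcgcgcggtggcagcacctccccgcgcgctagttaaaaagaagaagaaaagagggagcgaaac
Ptch1: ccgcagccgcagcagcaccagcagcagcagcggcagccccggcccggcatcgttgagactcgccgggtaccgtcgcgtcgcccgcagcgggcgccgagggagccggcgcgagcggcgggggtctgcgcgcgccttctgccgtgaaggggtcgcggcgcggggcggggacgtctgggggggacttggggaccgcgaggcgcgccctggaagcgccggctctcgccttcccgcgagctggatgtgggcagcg
Entries were found for 8 of the 10 genes, 10 windows in all, and not for Shh or Gli1. Foxa2 also had windows at chr2:148045949-148046198 and chr2:148045465-148045714, inside its annotated span, which are not shown. A GLI site (TGGGTGGTC), a FOXA site (TGTTTAC) and a MEIS core (TGACAG) were searched on both strands, a choice made after the values were seen, and none of the 3 was present in any of the 10 windows. Of 32851 mouse promoter windows of that length, 0.225% held the first, 3.17% the second and 15.9% the last. The absence says only that these letters are not in these 250 bases.

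Between DKO and control embryos, none of the 10 genes passed the threshold in either region. In the anterior piece 0 of 9 tested genes passed with edgeR (Noto was below the filter), beside 0.0394% of 15238 genes, and 2 of 9, Shh and Foxa2, had an unadjusted p under 0.05, beside 13% of all genes. DESeq2 called 1 of them, Shh. Of the 10 genes tested in the posterior piece 0 passed, beside 0.0126% of 15936 genes, DESeq2 called 0, and 3 of 10 (Foxa2, Gli2 and Gli3) had an unadjusted p under 0.05, beside 11%. Neither region held a gene of the 10 whose genotypes did not overlap, beside 5.08% of all genes in the anterior and 4.29% in the posterior piece. Their median log2 fold change was 0.04 in the anterior and −0.14 in the posterior piece, and that of all genes 0.00 and 0.01.

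**Figure D3:**
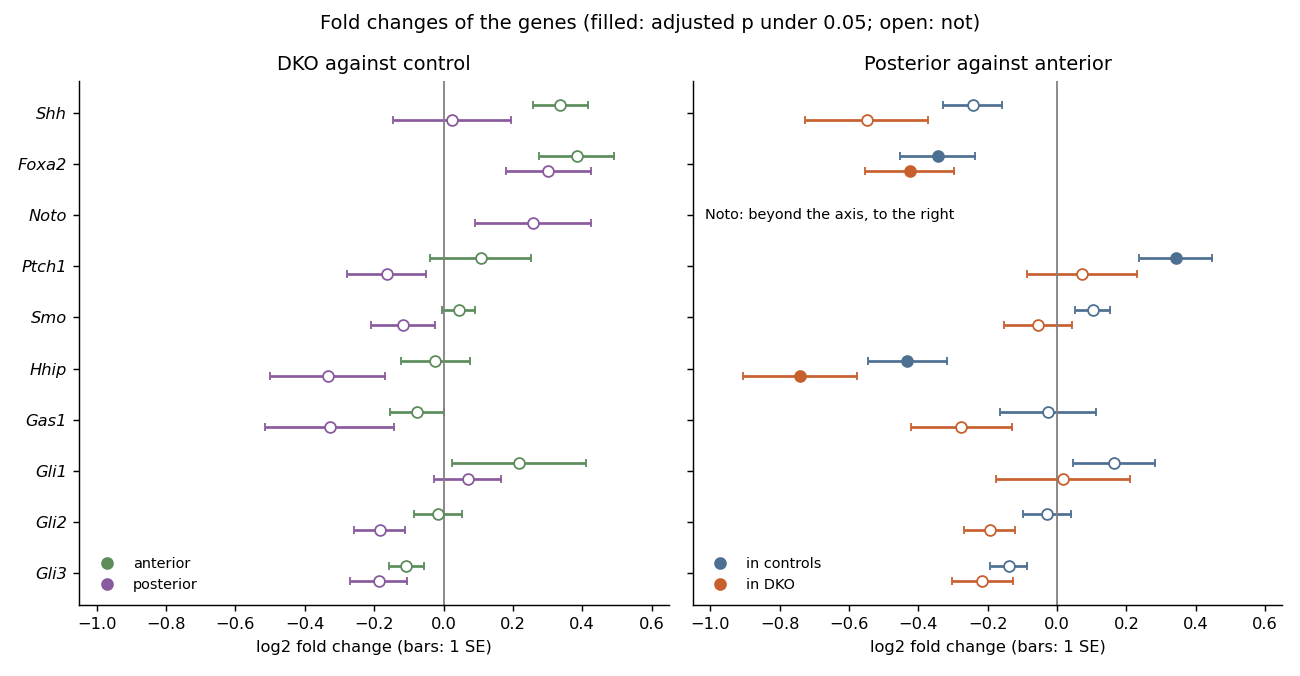
Points are log2 fold changes with bars of 1 SE (horizontal axis) for each gene (vertical axis), DKO against control on the left and posterior against anterior on the right; filled points had an adjusted p under 0.05. No point on the left is filled, and on the right Foxa2 and Hhip are filled below 0 in both genotypes and Ptch1 above 0 in controls, while Noto, also called, lies beyond the axis.

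The midline genes are described first. Anterior Shh, listed above by library, had a mean of 29.5 ± 2.27 CPM (SD) over the 5 controls and of 37.3 ± 3.52 CPM over the 4 DKO embryos. The log2 fold change was 0.34 (SE 0.0790, edgeR adjusted p = 0.129). The groups overlapped only because DKO 4 (32.4 CPM) lay just under control 4 (32.6 CPM). DESeq2 gave an adjusted p of 0.0155, and over all 16 settings the adjusted p ranged from there to 0.476. Anterior Foxa2 averaged 10.7 ± 0.685 CPM and 13.97 ± 2.09 CPM (0.38, SE 0.109, edgeR adjusted p = 0.187). Its DKO 2 library at 11.006 CPM lay inside the control range and the other 3 above it. Posterior Foxa2 averaged 8.42 ± 1.16 CPM and 10.4 ± 0.881 CPM (0.30, SE 0.123, edgeR adjusted p = 0.446), with DKO 3 inside the control range. Posterior Shh had nearly equal means, 25.0 ± 2.82 CPM and 25.3 ± 7.28 CPM (0.02, SE 0.169, edgeR adjusted p = 0.963; −0.015 without control 1), but a wider spread in DKO. Posterior Noto averaged 3.91 ± 0.747 CPM and 4.67 ± 0.534 CPM (0.26, SE 0.167, edgeR adjusted p = 0.545).

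Of the cell type markers 0 passed the threshold between the genotypes with edgeR in either region. At an unadjusted p under 0.05 were, in the anterior piece, 2 of 4 notochord and node, 2 of 6 floor plate, 0 of 5 gut endoderm, 7 of 10 neural tube and 4 of 6 sclerotome markers tested, beside 13% of all genes. In the posterior piece these were 0 of 4, 0 of 5, 4 of 8, 2 of 10 and 4 of 6, beside 11%. Of the same 5 lists DESeq2 called 1 floor plate marker (Spon1), 5 neural tube markers (Dbx1, Irx3, Nkx6-1, Olig2 and Sox3) and 3 sclerotome markers (Meox1, Pax1 and Twist1) in the anterior piece. In the posterior piece it called 1 neural tube marker (Sox2) and 2 sclerotome markers (Foxc2 and Meox1). Among the other 8 lists, at an unadjusted p under 0.05 were in the anterior piece 5 of 5 neural crest markers, all higher in DKO (DESeq2 called Erbb3, Foxd3 and Sox10), 4 of 6 dermomyotome and myotome markers (DESeq2 called Myf5) and 2 of 3 heart markers. In the posterior piece 5 of 7 primitive erythroid markers did, with sums of 1363 to 2207 CPM in controls and 1641 to 3388 CPM in DKO. The remaining 4 lists had at most 2 such markers in either piece (DESeq2 called Krt8, of surface ectoderm, in the posterior one). The summed notochord and node markers were at 12.0 to 17.1 CPM in anterior controls and 17.9 to 18.9 CPM in anterior DKO, and the neural tube sum at 512 to 655 CPM and 670 to 739 CPM, so neither sum overlapped. The floor plate sum did overlap, at 327 to 364 CPM and 327 to 355 CPM, as did the gut endoderm sum, at 46.9 to 80.0 CPM and 54.8 to 84.5 CPM. Sclerotome markers, the tissue this pathway directs, had anterior sums of 368 to 410 CPM in controls and 235 to 323 CPM in DKO. Posterior notochord and node sums were 95.7 to 148 CPM and 99.8 to 146 CPM, and the sclerotome sums 360 to 481 CPM and 202 to 368 CPM. How far these markers bear on Shh and Foxa2 was not tested.

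Receptors and modulators overlapped between the genotypes in both pieces. Ptch1 averaged 203 ± 33.2 CPM in anterior controls and 219 ± 43.7 CPM in anterior DKO (log2 fold change 0.11, SE 0.145), and 257 ± 24.8 CPM and 229.7 ± 38.9 CPM in the posterior piece (−0.16, SE 0.114). Smo averaged 229.7 ± 8.61 CPM and 237 ± 10.2 CPM in the anterior piece, and 247 ± 14.4 CPM and 228 ± 31.9 CPM in the posterior piece. Both genes overlapped between genotypes throughout, and posterior DKO 4 was the lowest posterior library for each. Hhip averaged 11.9 ± 1.20 CPM and 11.7 ± 0.993 CPM in the anterior piece and 8.80 ± 1.17 CPM and 6.96 ± 1.71 CPM in the posterior piece (−0.33, SE 0.166, edgeR adjusted p = 0.478; −0.51 to −0.25 over all 16 settings). Posterior Gas1 was at 113, 94.3, 134, 123 and 181 CPM in controls and at 85.3, 131, 82.1 and 113 CPM in DKO (−0.33, SE 0.186, edgeR adjusted p = 0.504). Its posterior libraries spread more than those of any other of the 4 receptor and modulator genes in controls, from control 2 to control 5.

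The Gli effectors likewise overlapped. Anterior Gli1 was at 56.5, 75.9, 48.1, 51.2 and 57.8 CPM in controls 1 to 5 and at 63.7, 42.0, 91.8 and 73.2 CPM in DKO embryos 1 to 4 (log2 fold change 0.22, SE 0.194, edgeR adjusted p = 0.686). Both the lowest and the highest of these 9 libraries were DKO. Posterior Gli1 averaged 65.0 ± 7.75 CPM and 68.2 ± 7.31 CPM. Posterior Gli2 was at 59.4 to 69.6 CPM in controls and 49.3 to 61.0 CPM in DKO (−0.18, SE 0.0733, edgeR adjusted p = 0.444). Posterior Gli3 was at 94.3 to 106 CPM and 76.3 to 105 CPM (−0.19, SE 0.0822, edgeR adjusted p = 0.451). For Gli3 3 of the 4 posterior DKO libraries lay below every posterior control, and DKO 3 lay among them.

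Whether the DKO effect differed between the regions was tested as the interaction of region and genotype. With edgeR 0 of the 10 genes passed, as did 0% of 16428 genes, each of the 10 with an adjusted p of 0.999, and 0 of them had an unadjusted p under 0.05, beside 3.45% of all genes. DESeq2 also called 0 of the 10. The interaction was −0.31 for Shh (SE 0.200), −0.31 for Hhip (SE 0.197), −0.27 for Ptch1 (SE 0.200) and −0.25 for Gas1 (SE 0.220) on the log2 scale. It was below 0 for the 9 genes other than Noto, whose anterior counts are too few for a genotype effect there, and the median of all 10 was −0.16 beside 0.01 for all genes. Primitive erythroid markers lay the other way in the same interaction, above 0 for 7 of 7 with a median of 1.15, 6 of them at an unadjusted p under 0.05 and 0 past the threshold. The part of these cells in the 10 values was not tested. The 10 interactions share their libraries and are not independent of each other.

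Ptch1 and Gli1, which both respond to the signal, were next compared across embryos, a choice made after the values were seen. Over the 9 anterior libraries Pearson's r of their log2 CPM was 0.959 (two-sided exact permutation p = 5.24e-05, adjusted over 10 relations p = 0.000524), and Spearman's rho was 0.933 (exact p = 0.000750, adjusted p = 0.00750). Without the 2 embryos farthest from the median Ptch1 level r was 0.954, and within genotypes it was 0.928 over 5 controls and 0.999 over 4 DKO embryos. Anterior DKO 2 and control 3, the embryos with 24 somites, were lowest for both genes, and anterior DKO 3 and control 2, those with 20 somites, were highest. In the posterior piece r was 0.519 (exact p = 0.146, adjusted p = 0.309) and rho 0.417 (exact p = 0.270, adjusted p = 0.480); the difference between the pieces was not tested. Both genes are read from the same libraries, so whatever the libraries share enters r.

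**Figure D4:**
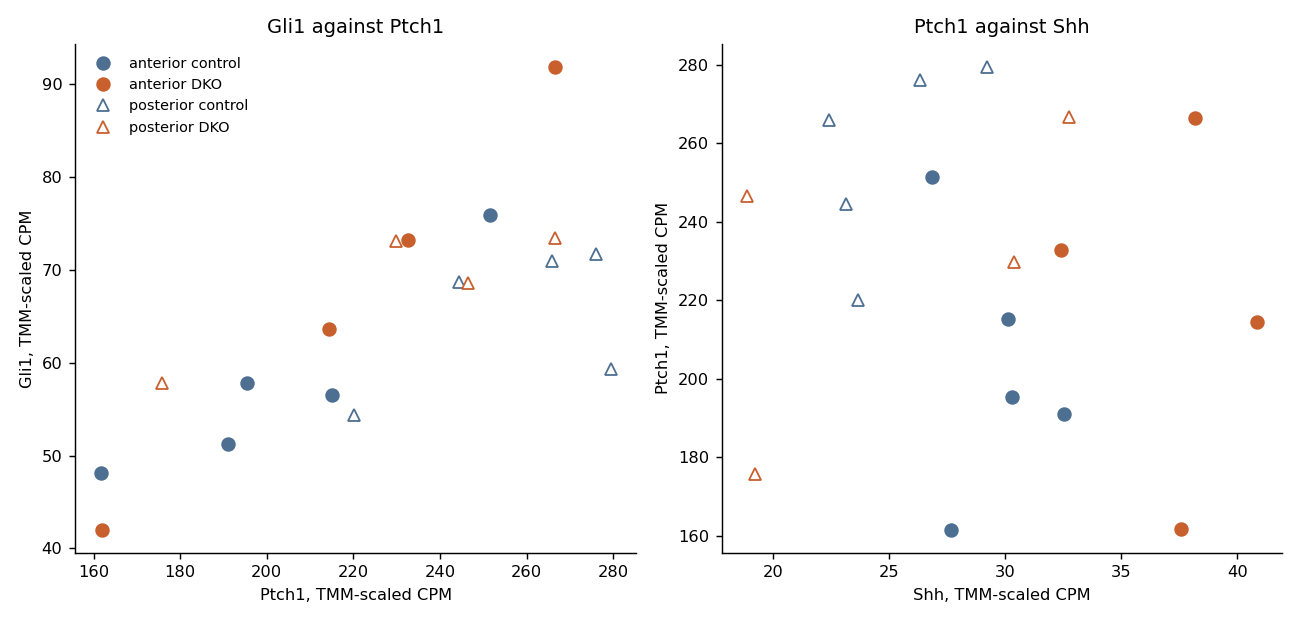
Each point is 1 library, with TMM-scaled CPM of Gli1 against Ptch1 on the left and of Ptch1 against Shh on the right; circles are anterior, open triangles posterior, blue control and orange DKO, and the axes do not start at 0. Anterior circles lie along a line on the left (r = 0.959 on the log2 scale), and on the right they show no such order (r = 0.0791).

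No relation between the ligand and its readouts was detectable over 9 embryos. Shh against Ptch1 had r = 0.0791 in the anterior piece (exact permutation p = 0.835, rho 0.050, exact p = 0.912) and 0.519 in the posterior piece (exact p = 0.149, rho 0.400, exact p = 0.291). Shh against Gli1 had r = 0.0949 (exact p = 0.805, rho 0.0833, exact p = 0.843) and 0.339 (exact p = 0.365, rho 0.567, exact p = 0.121). For Shh and Foxa2, both midline genes, r was 0.681 in the anterior piece (exact p = 0.0438, adjusted p = 0.219, rho 0.617, exact p = 0.0857), 0.654 without the 2 farthest embryos, but −0.111 within controls and 0.151 within DKO. With 5 and 4 embryos these within-genotype values are descriptions. Posterior Shh and Foxa2 had r = 0.225 (exact p = 0.562, rho 0.367, exact p = 0.336). Ptch1 against Hhip had r = 0.517 in the anterior piece (exact p = 0.154, rho 0.517, exact p = 0.162) and 0.279 in the posterior piece (exact p = 0.494, rho −0.0833, exact p = 0.843). Without the 2 embryos farthest from the median of the first gene, r was 0.348 (anterior) and 0.657 (posterior) for Shh and Ptch1, 0.314 and −0.0493 for Shh and Gli1, 0.0275 and −0.392 for Ptch1 and Hhip, −0.225 for posterior Shh and Foxa2 and 0.665 for posterior Ptch1 and Gli1. Apart from Ptch1 and Gli1 in the anterior piece, 0 of the 10 relations had an adjusted p under 0.05.

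The wider pathway was read from 42 other genes in 4 lists. In controls 11 of the 41 tested were past the threshold and higher in the posterior piece and 14 past it and lower, beside 12.1% and 13.3% of all genes. In DKO 6 of 42 were past it and higher and 10 past it and lower, beside 8.76% and 9.7%. In each genotype the genes past it and higher include Ihh, which met the filter on low counts mainly through its posterior libraries. By direction alone, 18 were higher and 23 lower in controls, and 15 were higher and 27 lower in DKO. The median log2 fold change of all genes tested from the lists was −0.06 in controls and −0.12 in DKO. Between genotypes 0 of the 42 passed with edgeR in either region or in the interaction, and 9 of 41 in the anterior, 3 of 42 in the posterior piece and 2 of 42 in the interaction had an unadjusted p under 0.05, beside 13%, 11% and 3.45% of all genes. DESeq2 called 3 of them in the anterior piece (Nkx6-1, Olig2 and Pax1) and 0 in the posterior piece or the interaction.

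**Figure D5:**
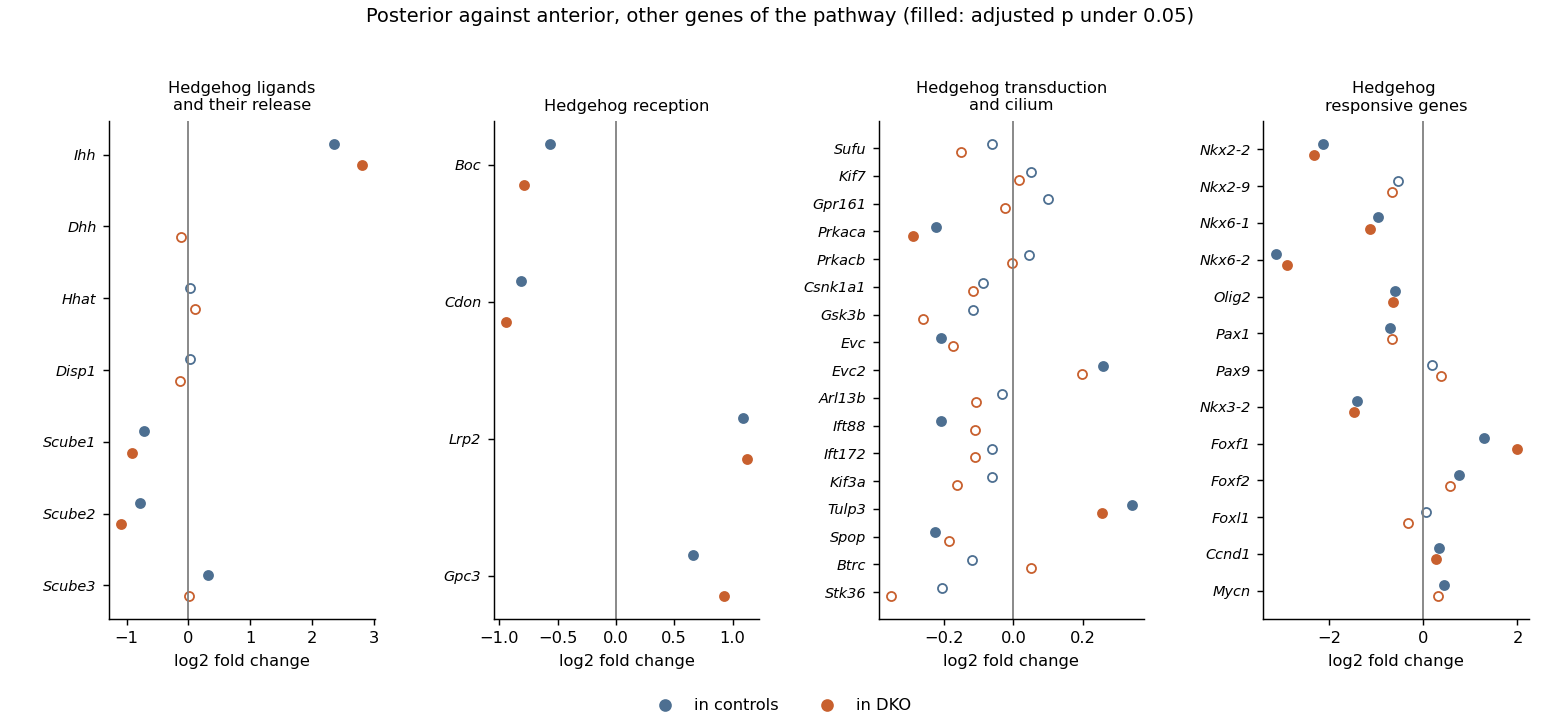
Each panel shows genes of 1 of the 4 lists, with the log2 fold change of posterior against anterior on the horizontal axis (scales differ between panels), controls in blue and DKO in orange, filled where the adjusted p was under 0.05. In the reception panel Boc and Cdon lie left of 0 and Lrp2 and Gpc3 right of it in both genotypes.

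Genes for receiving the ligand split by region. In both genotypes Lrp2 and Gpc3 were higher and Boc and Cdon lower in the posterior piece. Cdon, which like Boc and Gas1 is a coreceptor that helps bind the ligand, was at 99.0 to 125 CPM in anterior and 49.0 to 70.2 CPM in posterior controls, 1.76 times lower (log2 fold change −0.81, SE 0.0953, edgeR adjusted p = 4.18e-05). Boc was 1.48 times lower (−0.57, SE 0.0736, edgeR adjusted p = 0.000104). In DKO Cdon was 1.92 times and Boc 1.73 times lower, and all 4 comparisons had regions that did not overlap, as did 20.1% of all genes in controls and 23.5% in DKO. Lrp2, an endocytic receptor that can take up Shh, was at 22.1 to 29.1 CPM in anterior and 47.3 to 61.8 CPM in posterior controls, 2.13 times higher (1.09, SE 0.0837, edgeR adjusted p = 1.45e-06). Gpc3, a glypican that competes with Ptch1 for the ligand, was 1.58 times higher in controls (0.66, SE 0.0569, edgeR adjusted p = 3.58e-06) and 1.90 times in DKO.

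Among ligands and the proteins that release them, 4 of the 6 tested passed in controls and 3 of 7 in DKO, beside 25.4% and 18.5% of all genes. Both counts include Ihh, whose calls depend on the filter as described below. Scube2, a secreted protein that helps free Shh from the cell surface, was at 23.5 to 33.2 CPM in anterior and 12.3 to 25.2 CPM in posterior controls (log2 fold change −0.79, SE 0.160, edgeR adjusted p = 0.00287), and was 2.12 times lower in DKO (−1.09, SE 0.154, edgeR adjusted p = 0.000710). Scube1 was also lower in both, by −0.71 in controls (SE 0.185, edgeR adjusted p = 0.0129; 0.0585 without control 1) and −0.92 in DKO. Scube3 was higher in controls (0.32, SE 0.0784, edgeR adjusted p = 0.00944; 0.0703 without control 4), and Ihh, at under 50 counts on average, was higher in both genotypes. Ihh held 1 to 27 counts in anterior and 15 to 99 in posterior controls, and 3 to 22 and 18 to 85 in DKO. It met the filter on low counts mainly through the posterior libraries, so its calls are not independent of that filter and are given no p-value here. In the transduction and cilium list 6 of 17 passed in controls with small changes, beside 25.4% of all genes. Tulp3, a ciliary trafficking adaptor, was higher by 0.34 (SE 0.0560, edgeR adjusted p = 0.000631). Evc2 was higher as well, and Prkaca, Spop, Ift88 and Evc were lower, but those 5 calls each ended without 1 or more of the 5 control embryos (edgeR adjusted p from 0.0569 to 0.144). Without control 1 these were 0.0602 for Evc2, 0.0600 for Ift88 and 0.127 for Evc. Spop and Evc also lost the call with RLE size factors (edgeR adjusted p = 0.0581 and 0.0561) and without a filter on low counts (0.0884 and 0.109). The same held with a filter at a mean of 50 counts (0.0542 and 0.0530), and Ift88 lost it without a filter (0.088). In DKO 2 of the 17 passed, Tulp3 higher and Prkaca lower, beside 18.5% of all genes. The edgeR adjusted p of Tulp3 was 0.0624 without embryo 1 and 0.0554 without embryo 2, and that of Prkaca 0.150, 0.0632 and 0.0681 without embryos 1, 3 and 4.

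Most genes known to respond to the signal differed between regions in controls. In controls 10 of 13 passed, 6 lower posteriorly (Nkx2-2, Nkx6-1, Nkx6-2, Olig2, Pax1 and Nkx3-2) and 4 higher (Foxf1, Foxf2, Ccnd1 and Mycn), and in DKO 7 passed, 5 lower and 2 higher, beside 25.4% and 18.5% of all genes. Nkx6-2, a factor of ventral neural progenitors, was at 6.53 to 14.1 CPM in anterior and 0.601 to 1.63 CPM in posterior controls, 8.84 times lower (log2 fold change −3.14, SE 0.261, edgeR adjusted p = 2.62e-06), and 7.49 times lower in DKO. Nkx6-1, of the same progenitors, was 1.94 times lower in controls and 2.21 times in DKO. Olig2, of motor neuron progenitors, was 1.52 times lower in controls, but its edgeR adjusted p was 0.0581 without control 1 and 0.0705 without control 4. In DKO the call on Olig2 ended without embryo 1 (edgeR adjusted p = 0.0582), and that on Ccnd1 without embryo 1 (0.0598) or 2 (0.0654). Foxf1, of the mesoderm around the gut, was 2.43 times higher in controls (1.28, SE 0.237, edgeR adjusted p = 0.00151). In DKO its call (1.98, SE 0.503, edgeR adjusted p = 0.0198) ended without embryo 1, 2 or 3 (0.0708, 0.0836 and 0.0975). Without embryo 4, whose anterior piece was at 10.2 CPM against 1.51 to 3.06 CPM in the other 3, the log2 fold change was 3.02 (edgeR adjusted p = 0.000205). Olig2 and Nkx6-1 are also among the neural tube markers above Pax1 and Nkx3-2 among the sclerotome markers, and Foxf1 and Foxf2 among 5 splanchnic and lateral mesoderm markers, so these lists are not separate evidence. All 5 had higher posterior values in each genotype, 4 of them past the threshold beside 12.1% (controls) and 8.76% (DKO) of all genes, with sums of 14.7 to 37.9 CPM in anterior and 69.3 to 101 CPM in posterior controls.

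Of the 13 responsive genes, 3 had anterior genotypes that did not overlap, Nkx6-1 and Olig2 (DKO above control) and Pax1 (DKO below), beside 5.08% of all genes. Pax1 is a sclerotome factor whose expression needs Shh from the midline. Anterior controls 1 to 5 were at 54.5, 59.1, 45.0, 53.3 and 59.0 CPM and anterior DKO libraries 1 to 4 at 15.6, 40.0, 25.6 and 32.1 CPM. Every anterior DKO library lay below every anterior control. The log2 fold change was −0.95 (SE 0.213), and the edgeR adjusted p over all genes was 0.120. Posterior Pax1 had −0.92 (SE 0.305, edgeR adjusted p = 0.392). Over the same anterior libraries Shh, Ptch1, Gli1 and Hhip had log2 fold changes of 0.34, 0.11, 0.22 and −0.02, none past the threshold with edgeR. How these values bear on Pax1 was not tested.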

How the data were processed

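The deposited table holds expected counts per Ensembl gene for build GRCm38, made by the authors with CASAVA, cutadapt and RSEM, per the submitters' processing notes. The aligner, the versions and the use of read strand are not given in the sources used here. Reads were single-end, per the labels' protocols, and carry no molecular identifiers. Where genes share exons with another gene, that gene held at most 71.8 expected counts (Gm48488 at Gas1). Symbols and coordinates came from GENCODE M21 (105 of 53465 identifiers were not found), and no column of per-sample values was left out.

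Expected counts were rounded and tested in R 4.3.3 with edgeR 4.0.16 (glmQLFit, glmQLFTest, TMM scaling, filterByExpr with a minimum count of 10 and a minimum total of 15), with Benjamini-Hochberg adjustment over all genes tested and a threshold of 0.05. Levels are TMM-scaled CPM, with a prior count of 2 wherever log2 CPM was taken. SE is the log2 fold change divided by the square root of F. Exact tests and intervals used SciPy 1.17.1. The code was tested on simulated data. Nothing in the labels says how the control animals were bred, and p-values measure the spread between these embryos.

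Anterior and posterior libraries were matched to 1 embryo by genotype, sex label and somite number in the labels. Their deviations from the group means correlated at 0.256 to 0.570 in 9 pairs, against −0.283 to 0.0916 in 32 pairs of different embryos, so the embryo pairs the libraries and was the block of 1 alternative. The main fits leave this block out, because the labels themselves name no pairs. Regional p-values and shares of all genes therefore treat the pieces of an embryo as independent, except where the block is named. The other alternatives were RLE size factors, DESeq2 1.42.0, testing without a filter or only above a mean of 50 counts, somite number as a covariate, all 18 libraries in 1 fit and leaving out each embryo. All 10 genes were named, and so were those of the 42 other pathway genes that passed and averaged 50 counts or more, besides genes named in counts of 5 or fewer, chosen after their values were seen. Values of 2 genes of the lists are not reported here, although counts over the lists include them. The genes, lists and motifs were chosen with earlier results of these data known.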

Additional observations from a re-analysis of the deposited data

Results flagged for a closer look

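Among 38 sets of libraries (1 gene in 1 group) screened for a library far from the others, 1 stood out. Smo in anterior control 4 was at 214.9 CPM, below the other 4 anterior controls, which lay between 229.8 and 236 CPM. Chance alone singles out about 1 in 20 such sets, and no explanation was tested.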

How the results depend on the processing

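Of 1026 values recomputed for single genes, 933 kept their direction and side of the threshold, 59 lost the call, 10 gained it and 24 changed sign. All 24 sign changes came from leaving out 1 embryo, and none of those values passed the threshold. The log2 fold changes concerned, with their range when embryos were left out in turn, were as follows. Between genotypes they were Ptch1 (−0.00028 to 0.23), Hhip (−0.083 to 0.018) and Gli2 (−0.068 to 0.018) in the anterior piece and Shh (−0.13 to 0.14) in the posterior piece. In the interaction they were Foxa2 (−0.15 to 0.014), Noto (−0.18 to 0.95) and Gli1 (−0.35 to 0.020). Between regions they were Gli2 (−0.057 to 0.0078) and Gas1 (−0.20 to 0.073) in controls, and Ptch1 (−0.046 to 0.21), Smo (−0.15 to 0.028) and Gli1 (−0.19 to 0.19) in DKO.

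With DESeq2, 1 of the 10 genes was called in the anterior DKO comparison, 5 between regions in controls and 4 in DKO. Leaving out 1 embryo left 2 to 4 of the 10 past the threshold between regions in controls, and 1 to 3 in DKO. With the embryo as a replicate block 5 (controls) and 4 (DKO) passed, Shh being the added gene, and no other call among the 10 changed. Over all genes, regional calls in controls went from 3884 to 5136 with that block and to 4153 with DESeq2. In DKO they went from 2913 to 3004 and to 3393. A filter at a mean of 50 counts removed Noto from the control comparison. Over all genes, the 6 anterior calls between genotypes became 296 with DESeq2 (39.5% of them higher, against 50% of the 6), 83 without a filter, 84 with somite number as a covariate, 19 with all libraries in 1 fit, and 1 to 57 without 1 embryo. The 2 posterior calls became 161, 14, 7 and 51 under the same settings, 1 with the filter at a mean of 50 counts, and 2 to 24 without 1 embryo. The interaction had 0 calls, 10 with DESeq2, and 0 to 1 without 1 embryo. Without 1 embryo, regional calls went from 3884 to between 2922 and 3377 in controls, and from 2913 to between 1728 and 2550 in DKO. The cause of these shifts was not tested. No scaling moved the median of all genes by over 0.1. Of 36 regional calls on other pathway genes that averaged 50 counts or more, 22 stood in every alternative; calls on genes below that mean were not followed. With 4 or 5 embryos a group, SEs for the 10 genes were 0.0478 to 0.194 on the log2 scale in the anterior comparison of genotypes. There, changes of several SEs could still miss the threshold. Anterior Meis2 at −0.41 (SE 0.0608) had an edgeR adjusted p of 0.0522, and Shh at 0.34 (SE 0.0790) had 0.129. The absence of a call thus does not exclude changes of that size.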

Other observations

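Somite number was compared with the levels of the 10 genes in each region after the values had been seen, 19 relations over 9 embryos each. In the anterior piece Ptch1 was lower in embryos with more somites (Pearson's r = −0.772, two-sided exact permutation p = 0.0175, adjusted p = 0.273; rho −0.735, exact p = 0.0295, adjusted p = 0.203), and so was Gli1 (r = −0.727, exact p = 0.0288, adjusted p = 0.273; rho −0.769, exact p = 0.0197, adjusted p = 0.203). Neither passed the adjustment. Without the 2 embryos farthest from the median somite number, r was −0.475 for Ptch1 and −0.342 for Gli1, over a narrower range of somite numbers. Within genotypes r was −0.742 (5 controls) and −0.853 (4 DKO) for Ptch1, and −0.698 and −0.859 for Gli1. With somite number in the edgeR fit, the change per somite was −0.13 for anterior Ptch1 (SE 0.0327, adjusted p = 0.161) and −0.16 for anterior Gli1 (SE 0.0444, adjusted p = 0.167). Posterior Gas1 was higher with more somites (r = 0.645, exact p = 0.0617, adjusted p = 0.391; rho 0.727, exact p = 0.0320, adjusted p = 0.203), also short of the threshold, with r = 0.353 without the 2 farthest embryos.

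The genes whose level followed each of 4 members most closely over the 18 libraries were looked up among 14218 candidates after removal of the group means, as a description. For Ptch1 the 3 nearest were Nup160 (r = 0.961), Coa5 (0.907) and Tarbp1 (0.898), with Gli1 at 0.874. For Gli1 they were P3h2 (0.914), Cpn1 (0.903) and Acsl1 (0.889). For Shh they were Gm9803 (0.880), Stum (0.819) and Inpp1 (0.800), and for Foxa2 they were Mfsd4b4 (0.831), Chst7 (0.830) and Uck2 (0.798). Each is the top of a long list, in libraries that share embryos in pairs.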
